A study of Mus musculus with 5 samples.

Results

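The 10 genes described here control the shape and the removal of mitochondria, and were followed in the injured kidneys of mice with and without a tubular deletion of Prdm16. They were chosen by their names, with earlier results of these data known. All 10 were found among the 35478 genes listed for each kidney. The fusion genes were Mfn1, Mfn2 and Opa1, the fission genes were Dnm1l, Fis1 and Mff, and the mitophagy genes were Pink1, Bnip3, Bnip3l and Fundc1. All 10 were also among the 16394 genes with enough reads to be tested between the genotypes.

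Mitochondria fuse when mitofusins on the outer membrane and OPA1 on the inner membrane join the membranes of neighbouring organelles. They divide when the GTPase DRP1 is brought to the surface by adaptors such as MFF and FIS1 and constricts the organelle. Damaged mitochondria are handed to the autophagosome either through the kinase PINK1, which marks them with phosphorylated ubiquitin, or through membrane receptors such as BNIP3, BNIP3L and FUNDC1. The tubule is among the tissues richest in mitochondria, and fragmented mitochondria are a known feature of ischemic tubular injury.

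The kidneys, 1 library each, were those of 2 control mice of the genotype Prdm16fl/fl and of 3 knockout mice of the genotype Ksp-Cre/Prdm16fl/fl, all of them subjected to unilateral ischemia-reperfusion injury (UIRI). The labels number the control mice 1 and 3 and the knockout mice 1 to 3, and values are given in that order. All were male mice, aged 7 to 8 weeks, and littermates served as controls. Their labels give the strain as C57BL/6J;129 in one field and as C57BL/6J in another. Both genotypes carried loxP sites around exon 9 of Prdm16, and only the Ksp-Cre mice expressed Cre recombinase, in the tubular epithelium. In every mouse the left pedicle was clamped for 35 minutes on a bath at 38.5°C, the opposite kidney was taken out on day 10, and tissue was collected 24 hours later, on day 11. No uninjured kidney was analysed here, so every value below describes an injured kidney.

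Reads counted per library numbered 15215871 and 14939040 in control mice 1 and 3 and 16425161, 16111708 and 15470435 in knockout mice 1, 2 and 3. The members were deeply covered, from 470 reads for Fundc1 in knockout mouse 3 to 3302 reads for Bnip3 in the same mouse. Levels between mice are given as CPM, the count per 1000000 reads after TMM scaling, a correction for the composition of each library. Differences are log2 fold changes of knockout over control with standard errors (SE) and 95% intervals from edgeR's quasi-likelihood test, and genes with a p under 0.05 after Benjamini-Hochberg adjustment over all 16394 were called. Positions are those of the files, whose mouse build is not given in the sources used here, and exons are those of all transcripts of a gene merged. With 1 library per mouse, the p-values measure the spread between these mice.

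Knockout mouse 3 stood apart from the other 4 libraries. On the first principal component, which held 56.4% of the variance, it lay at 72.2 and the others between -36.2 and -1.92. Its counts differed from those of knockout mice 1 and 2 by a chi-square of 74.5 and 62.7 per degree of freedom, whereas mice 1 and 2 differed by 9.89. For this reason the results are also given without this mouse. In the fit without it 18.9% of 16196 genes were called, so a call there is far less selective than in the fit of all 5 mice.

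Prdm16 itself, a zinc finger regulator of transcription, was measured at 25.3 and 20.02 CPM in control mice and at 17.1, 16.95 and 17.99 CPM in knockout mice, with a log2 fold change of -0.38 (SE 0.15, adjusted p = 0.259). After TMM scaling every knockout mouse lay below both control mice, the direction the labels give. In the deposited TPM the groups overlapped, at 5.86 and 4.21 TPM in control mice and 4.64, 4.58 and 4.34 TPM in knockout mice, and the log2 fold change was -0.21 without control mouse 1 and -0.18 with limma on log2(FPKM + 1). This count covers the whole gene in all cells of the tissue, not the deleted exon alone.

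None of the 10 genes was called between the genotypes in the fit of all 5 mice, where 160 of 16394 genes (0.976%) were called, most of them lower in the knockout (0.872%). Fis1 was the 1 member with an unadjusted p under 0.05, a level that 18.8% of all genes reached. DESeq2 and limma on log2 FPKM also called 0 of the 10. The estimates were small: the log2 fold change was below 0 for 9 members and above 0 for Bnip3l, between -0.44 for Pink1 and 0.22 for Bnip3l, with a median of -0.21 against 0.038 for all genes tested and 46.0% of all genes below 0. Under scaling by library size alone the median of all genes moved to 0.15 and that of the members to -0.10, and 8 of the 10 stayed below 0. That scaling brought Mfn1 to -0.13, Mfn2 to -0.18, Opa1 to -0.097, Dnm1l to -0.035, Bnip3 to -0.11 and Fundc1 to -0.031. In the deposited TPM the knockout mean lay above the control mean for Mfn1, Opa1, Dnm1l, Mff, Bnip3, Bnip3l and Fundc1. It lay below for Mfn2, Fis1 and Pink1.

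Without knockout mouse 3, Fis1, Pink1 and Bnip3 were called lower, 3 of 10 members, where 11.0% of all genes were called lower. The other 7 were not called in that fit either. Among the knockout mice, Mfn1, Opa1, Dnm1l, Fis1 and Mff varied by a log2 range of at most 0.23, and Mfn2, Pink1, Bnip3, Bnip3l and Fundc1 by at least 0.39.

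**Figure D1:**
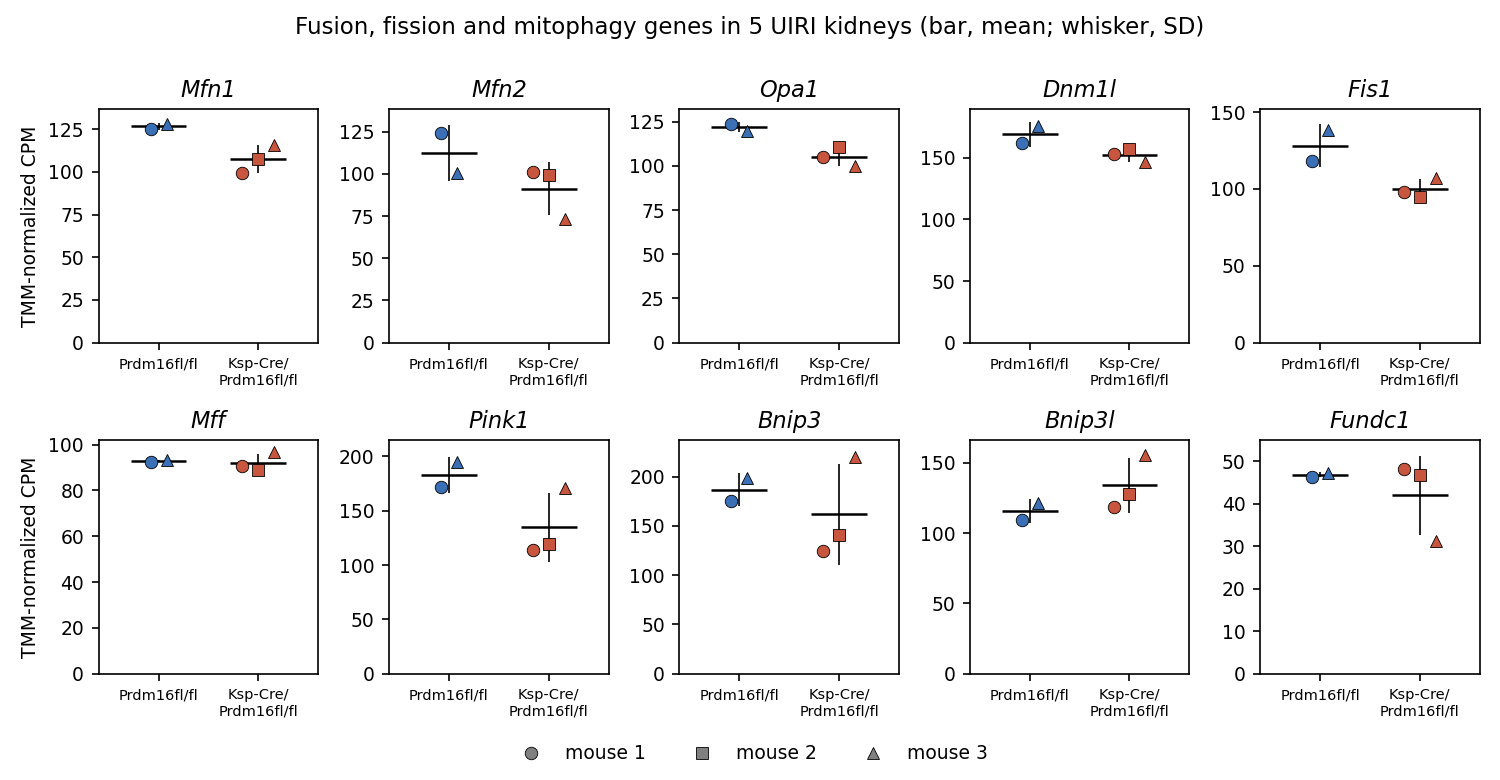
Each panel plots the TMM-normalized CPM (vertical axis, from 0) of 1 gene in the 2 Prdm16fl/fl and 3 Ksp-Cre/Prdm16fl/fl UIRI kidneys, with a bar at the group mean and a whisker of 1 SD. Mfn1, Opa1, Dnm1l, Fis1 and Pink1 have every Ksp-Cre/Prdm16fl/fl kidney below both Prdm16fl/fl kidneys on this scale, and mouse 3 (triangle) is the highest of its group for Mfn1, Fis1, Mff, Pink1, Bnip3 and Bnip3l and the lowest for Mfn2, Opa1, Dnm1l and Fundc1.

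The fusion genes had the same direction in every fit but did not pass the test. Mfn1, a mitofusin of the outer membrane (chromosome 3, 32583594 to 32633374, plus strand, 18 merged exons), was measured at 125 and 128 CPM in the control mice and at 99.2, 108 and 116 CPM in the knockout mice. The groups did not overlap after TMM or library size scaling, but did in the deposited TPM. The mean was 127 ± 2.14 CPM (SD, n = 2) against 108 ± 8.42 CPM (SD, n = 3). This gave a log2 fold change of -0.24 (SE 0.12, 95% interval -0.52 to 0.05, adjusted p = 0.342), or 84.9% of the control level. Without knockout mouse 3 it was -0.29 (adjusted p = 0.070). Of the exonic length of Mfn1, 13.9% overlaps Gnb4 on the opposite strand. Gnb4 had 273 to 357 reads per library over its whole length, against 1742 to 1857 for Mfn1.

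Mfn2, the second mitofusin, which also tethers mitochondria to the endoplasmic reticulum, lies on the minus strand of chromosome 4 (147958043 to 147989527, 20 merged exons). It was measured at 124 and 101 CPM in the control mice and at 101, 99.2 and 73.2 CPM in the knockout mice. The groups overlapped, since control mouse 3 lay at the level of knockout mouse 1, and knockout mouse 3 was the lowest of all. The estimated log2 fold change was -0.30 (SE 0.18, 95% interval -0.75 to 0.15, adjusted p = 0.429) and -0.16 (adjusted p = 0.376) without that mouse. It also depended on the controls, at -0.14 without control mouse 1 and -0.45 without control mouse 3.

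Opa1 encodes the inner membrane GTPase that fuses inner membranes and keeps the cristae narrow (chromosome 16, 29398099 to 29481924, plus strand, 32 merged exons). Its level was 124 and 120 CPM in the control mice and 105, 110 and 100 CPM in the knockout mice. The groups did not overlap on this scale, but did under library size scaling and in the deposited TPM. The mean was 122 ± 2.79 CPM (SD, n = 2) against 105 ± 5.16 CPM (SD, n = 3). Its log2 fold change of -0.21 (SE 0.11, 95% interval -0.47 to 0.05, adjusted p = 0.353) was larger than the log2 range of 0.14 among the knockout mice, and was -0.17 (adjusted p = 0.237) without mouse 3.

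The fission genes were all below 0 in the fit of all 5 mice. Dnm1l, the gene of the fission GTPase DRP1 (chromosome 16, 16130092 to 16176902, minus strand, 22 merged exons), was measured at 162 and 176 CPM in the control mice and at 153, 157 and 147 CPM in the knockout mice. It varied little, with a log2 range of 0.10 in the knockout group, and the groups did not overlap after TMM scaling. They did overlap under library size scaling and in the deposited TPM. The log2 fold change was -0.15 (SE 0.11, 95% interval -0.43 to 0.13, adjusted p = 0.515), and -0.12 (adjusted p = 0.426) without mouse 3. It was -0.091 without control mouse 3 and -0.038 with limma on log2(FPKM + 1). As a share of the control level the estimate was 90.1%, with an interval from 74.4% to 109%.

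Fis1, a small adaptor anchored in the outer membrane, lies on the plus strand of chromosome 5 (136982129 to 136995088, 6 merged exons). It was measured at 118 and 138 CPM in the control mice and at 97.9, 94.6 and 107 CPM in the knockout mice. Every knockout mouse lay below both others, and the mean was 128 ± 14.1 CPM (SD, n = 2) against 99.9 ± 6.63 CPM (SD, n = 3), 78.0% of the control level. Its log2 fold change was -0.36 (SE 0.13, 95% interval -0.67 to -0.05, adjusted p = 0.209). Without knockout mouse 3 Fis1 passed the test, at -0.41 (SE 0.11, adjusted p = 0.0325). With the trend of fold change on gene length taken out, the estimate was -0.09. Fis1 has the shortest exonic sequence of the 10 genes, with 1102 bases.

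Mff, the main DRP1 receptor of the outer membrane (chromosome 1, 82702599 to 82730111, plus strand, 12 merged exons), was measured at 92.6 and 93.4 CPM in the control mice and at 90.7, 88.8 and 96.6 CPM in the knockout mice. The control values lay inside the range of the other group. The estimated log2 fold change was -0.01 (SE 0.11, adjusted p = 0.952), with a 95% interval from -0.27 to 0.24, and its sign turned under scaling by library size. Without mouse 3 it was -0.05 (adjusted p = 0.756). The noncoding gene C430014B12Rik overlaps 9.46% of its exonic length on the opposite strand and had 2 to 15 reads per library.

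**Figure D2:**
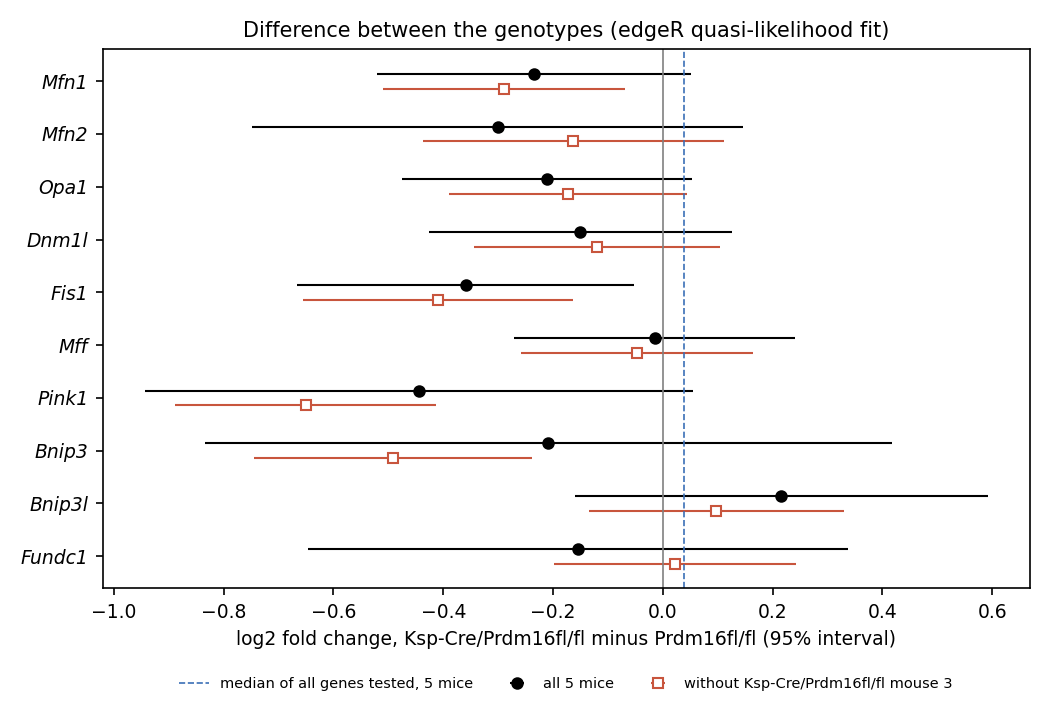
Log2 fold change of each gene (horizontal axis) between Ksp-Cre/Prdm16fl/fl and Prdm16fl/fl UIRI kidneys with its 95% interval, in the fit of all 5 mice (black) and without knockout mouse 3 (red squares). The dashed line is the median of all genes, 0.038, and only the intervals of Fis1 in both fits, and of Mfn1, Pink1 and Bnip3 without mouse 3, leave out 0.

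The mitophagy genes Bnip3, Fundc1 and Pink1 had the widest ranges among the knockout mice. Pink1, the kinase that starts ubiquitin-dependent mitophagy, lies on the minus strand of chromosome 4 (138040718 to 138053631, 9 merged exons). It was measured at 172 and 195 CPM in the control mice and at 114, 119 and 171 CPM in the knockout mice. Knockout mice 1 and 2 were far below both control mice, whereas mouse 3 lay just under control mouse 1. The log2 fold change was -0.44 (SE 0.21, 95% interval -0.94 to 0.05, adjusted p = 0.312), or 73.5% of the control level. Without knockout mouse 3 it was -0.65 (SE 0.10, 95% interval -0.89 to -0.41), and Pink1 passed the test with an adjusted p of 0.00462, the lowest of the 10. It stayed below 0 in all 15 alternative fits, between -0.65 and -0.34.

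Bnip3 is a receptor of the outer membrane that binds LC3 and a known target of the hypoxia-inducible factors (HIF). It lies on the minus strand of chromosome 7 (138492565 to 138511235, 6 merged exons) and was measured at 175 and 198 CPM in the control mice and at 124, 141 and 220 CPM in the knockout mice. Knockout mice 1 and 2 were the lowest of all 5 and mouse 3 was the highest, so that the log2 range in that group, 0.83, was the widest of the 10 genes. Its log2 fold change was -0.21 (SE 0.26, 95% interval -0.83 to 0.42, adjusted p = 0.703). Without mouse 3 it was -0.49 (SE 0.11, 95% interval -0.74 to -0.24, adjusted p = 0.0186). It was nearer 0 without knockout mouse 1 (-0.049) and without knockout mouse 2 or control mouse 3 (-0.12 each), and -0.063 with the gene length trend taken out. Its sign turned, to 0.0078, with the trends on gene length and GC content taken out.

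The promoters of Pink1 and Bnip3 are shown because these members had the lowest estimates without mouse 3, as the 250 bases before the RefSeq start in the mouse build GRCm38.p6. Capitals mark ACGTG or GCGTG, the core letters bound by HIF, on either strand, with overlapping matches joined. The windows are chr7:138909507-138909756 for Bnip3 and chr4:138326297-138326546 for Pink1, both read 5′ to 3′ along the minus strand. In GRCm38.p6 every member starts at another position than the one given above, so the windows cannot be placed on those gene positions.
Bnip3: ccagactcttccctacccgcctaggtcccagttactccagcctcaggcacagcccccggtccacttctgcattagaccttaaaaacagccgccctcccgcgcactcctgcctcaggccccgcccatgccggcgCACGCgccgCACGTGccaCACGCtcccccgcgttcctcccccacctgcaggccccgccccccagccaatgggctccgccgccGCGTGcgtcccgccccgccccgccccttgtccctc
Pink1: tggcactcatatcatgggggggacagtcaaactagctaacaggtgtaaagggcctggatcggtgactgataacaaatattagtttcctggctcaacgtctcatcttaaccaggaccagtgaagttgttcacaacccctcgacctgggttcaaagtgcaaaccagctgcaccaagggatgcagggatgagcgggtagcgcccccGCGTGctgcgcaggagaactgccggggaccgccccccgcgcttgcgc

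Bnip3 holds 4 such stretches and Pink1 holds 1. In Bnip3, 1 of the stretches is the E-box CACGTG, which contains ACGTG on both strands. Either core was found in 44.0% of 32544 distinct promoter windows of 300 bases, which add 50 bases after the start, and CACGTG in 7.17%. Promoters were matched for 9 of the 10 genes. Bnip3l was without an entry. Mfn2, Dnm1l and Fis1 held at least 1 core in 1 or more of their windows, and Mfn1, Opa1, Mff and Fundc1 held none. Fis1 held 1 core in a window of 300 bases and 0 in the 250 bases before the start. The part of these cores in the values of the members was not tested. Of the other motifs searched, AAGGTCA, the core site of estrogen-related receptors, was in 0 of the 14 windows of the members and in 4.71% of all, and TGACG, the core site of CREB, was in those of Mfn1, Mfn2 and Mff and in 20.9% of all. A match is a stretch of letters and not a measured binding site.

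Bnip3l, also called NIX, is the receptor best known for clearing mitochondria from maturing red cells (chromosome 14, 67222688 to 67246580, minus strand, 9 merged exons). It was the 1 member with a positive estimate, at 109 and 121 CPM in the control mice and 118, 128 and 156 CPM in the knockout mice. The groups overlapped, since control mouse 3 lay above knockout mouse 1. The estimated log2 fold change was 0.22 (SE 0.15, 95% interval -0.16 to 0.59, adjusted p = 0.496). It was 0.10 (adjusted p = 0.537) without mouse 3 and 0.14 without control mouse 1. A processed copy, Bnip3l-ps on chromosome 12, had 65 to 111 reads per library, and how reads shared by both were assigned is not given in the sources used here.

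Fundc1, a mitophagy receptor that responds to low oxygen (chromosome X, 17386206 to 17438600, minus strand, 7 merged exons), was measured at 46.4 and 47.2 CPM in the control mice and at 48.1, 46.7 and 31.3 CPM in the knockout mice. Of the 5 kidneys 4 lay within 2 CPM of each other, and knockout mouse 3 was alone at the low value. The log2 fold change was -0.15 (SE 0.20, 95% interval -0.65 to 0.34, adjusted p = 0.722), and it turned to 0.021 (adjusted p = 0.899) without that mouse. It was -0.26 and -0.24 without knockout mouse 1 and 2.

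**Figure D3:**
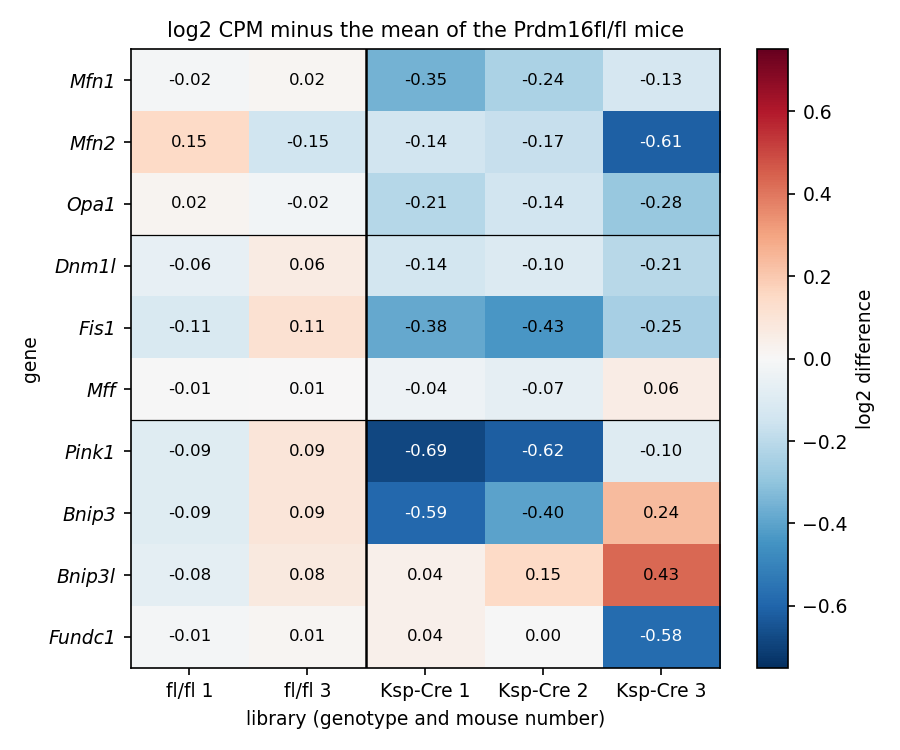
Log2 CPM of each gene (rows) in each kidney (columns) minus the mean of the Prdm16fl/fl mice, in blue where lower and in red where higher. Pink1 and Bnip3 are lowest in Ksp-Cre mice 1 and 2 (-0.69 and -0.62, and -0.59 and -0.40), whereas Mfn2 and Fundc1 are lowest in Ksp-Cre mouse 3 (-0.61 and -0.58).

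Knockout mouse 3 did not simply return to the control pattern. Against the mean of knockout mice 1 and 2 it was higher on the log2 scale by 0.73 for Bnip3, 0.56 for Pink1 and 0.34 for Bnip3l. It was lower, by -0.60 and -0.45, for Fundc1 and Mfn2, and within 0.17 for the other 5 members. The median log2 range among the knockout mice was 0.31 over the members, 0.44 over all genes and 0.32 over the 6975 genes of similar abundance, whose mean log2 CPM was 5 or more.

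Whether the groups overlapped depended on the scale. After TMM scaling the knockout values lay below both control values for 5 members, a pattern held by 21.3% of all genes, and above both for 0, a pattern held by 20.3%. With CPM scaled by library size alone 3 members lay below (Mfn1, Fis1 and Pink1; 15.2% of all genes) and Mff and Bnip3l lay above (29.4% of all genes). In the deposited TPM, which divides counts by gene length and has no TMM scaling, Fis1 alone lay below (10.4% of all genes) and Mff and Bnip3l again lay above (39.5% of all genes). Fis1 was the 1 member below on all 3 scales. None of these scales takes out the trend of fold change on gene length, without which the Fis1 estimate was -0.09.

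Levels of different genes were compared in TPM, which corrects for gene length. Fis1 and Bnip3 were the most abundant, with means over the 5 kidneys of 242 and 234 TPM, and they changed places in knockout mouse 3. Pink1 followed at 151 TPM, below Bnip3 and above Mff in every kidney. Mff at 102 TPM was above Dnm1l at 86.6 TPM in every kidney. Bnip3l at 70.9 TPM and Mfn1 at 60.5 TPM overlapped, and Bnip3l also overlapped Dnm1l. Mfn2 and Opa1, at 41.8 and 36.0 TPM, were not separated from each other, and Fundc1 was the lowest at 30.6 TPM. Even Fundc1 was above 68.8% of the genes tested, and Fis1 was above 96.0%.

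The TPM of the genes of each process was also added up, without TMM scaling and without a test. The fusion genes summed to 150 and 128 TPM in control mice and to 143, 148 and 123 TPM in knockout mice. For the fission genes the sums were 427 and 432 TPM against 442, 433 and 417 TPM, and the ratio of fusion to fission was 0.351 and 0.296 against 0.323, 0.342 and 0.294. The mitophagy genes summed to 479 and 489 TPM against 425, 461 and 575 TPM, so knockout mouse 3 was again the highest. In all of these sums the groups overlapped.

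Some ratios between paired genes, which do not depend on the scaling of a library, separated the groups. The TPM of Bnip3 was 3.95 and 4.04 times that of Bnip3l in the control mice and 2.59, 2.72 and 3.49 times in the knockout mice. Fis1 over Mff was 2.54 and 2.94 against 2.14, 2.12 and 2.21. Pink1 over Bnip3 was 0.709 and 0.710 against 0.662, 0.612 and 0.562, lower in every knockout mouse and lowest in mouse 3. These pairs were picked after their values were seen, so they are given without a test.

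The wider pathway was described by lists of other genes of the same processes. Of 13 other genes of fusion and its control, 12 were tested, 9 of them below 0 and 3 above, and 0 were called. Their median log2 fold change was -0.21, like that of the members. It was -0.10 under scaling by library size and -0.13 with the gene length trend removed. The largest decrease was estimated for Phb, a prohibitin scaffold of the inner membrane (-0.63, SE 0.16, adjusted p = 0.113), and the largest increase for Miga1, a mitoguardin that promotes fusion (0.32, SE 0.12, adjusted p = 0.241). Oma1 and Yme1l1, the proteases that cut OPA1, were at 0.05 and -0.07 (adjusted p = 0.851 and 0.771). Both were named after their values were seen. With knockout mouse 3 left out the median was -0.26, and Phb and Phb2, both prohibitins, were called lower.

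Of 11 other fission genes, 10 were tested, split evenly between 5 above and 5 below 0, and 0 were called. They ranged from -0.69 (SE 0.48, adjusted p = 0.481) for Mtfp1, an inner membrane fission protein, to 0.51 (SE 0.25, adjusted p = 0.334) for Inf2, a formin that builds actin at fission sites. Mtfp1 was another gene set by a single mouse, with 17.9 and 18.6 CPM in control mice and 16.01, 13.3 and 4.53 CPM in knockout mice. The median of these genes was -0.065, and 0.042 under scaling by library size. It was -0.14 without knockout mouse 3, and in that fit Mtfr1 and Mtfr1l, a pair of fission regulators, were called lower.

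Among 18 other mitophagy genes 1 was called, Tomm7, an outer membrane import subunit known to hold PINK1 on damaged mitochondria. Tomm7 fell from 70.7 and 79.4 CPM in control mice to 40.1, 39.5 and 35.0 CPM in knockout mice, a log2 fold change of -0.97 (SE 0.12, adjusted p = 0.0412), and it was also called without mouse 3. Of the others 11 were below 0 and 6 above, with Calcoco1 highest at 0.35 (SE 0.31, adjusted p = 0.576), and the median of the list was -0.021, or 0.092 under scaling by library size. When knockout mouse 3 was left out it was -0.091, with Nipsnap1 called lower beside Tomm7.

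The machinery that forms autophagosomes was described by a list of its core genes. Of 29 core autophagy genes 19 were above 0 and 10 below, 0 were called, and the median was 0.07, between -0.55 for Atg10 and 0.37 for Atg16l1, both factors of LC3 conjugation. The median was 0.18 under scaling by library size, 0.15 without knockout mouse 1 and 0.027 without control mouse 3. Without knockout mouse 3 the median was -0.07 and 4 genes were called lower, Wipi2, Map1lc3a, Gabarap and Gabarapl1, beside 11.0% of all genes in that fit. The 4 genes of mitochondrial transport along microtubules lay between -0.13 for Rhot2 and 0.01 for Trak2, with 0 called in either fit.

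Genes of cristae and of mitochondrial mass are given beside the members as a description, without a test of the difference. All 8 genes of the MICOS and SAM complexes, which shape cristae junctions and insert outer membrane proteins, had every knockout mouse below both control mice after TMM scaling, with a median of -0.63. Of these 1 was called, Micos13, which fell from 92.2 and 89.3 CPM to 58.9, 54.9 and 53.8 CPM (log2 fold change -0.70, SE 0.10, adjusted p = 0.0498). Apoo had the lowest estimate at -0.90 (SE 0.15, adjusted p = 0.0548) and Samm50 the highest at -0.32 (SE 0.12, adjusted p = 0.224). Without mouse 3, 7 of the 8 were called lower. In the fits without any 1 of the other 4 mice 0 genes were called, Micos13 and Tomm7 included. The 15 genes used as a gauge of mitochondrial content, such as Cs and Vdac1, were all below 0, with a median of -0.43, from -0.85 for Slc25a5 (adjusted p = 0.066) to -0.025 for Tomm20. Of these 0 were called with all mice and 7 were called lower without mouse 3. With the trend on gene length taken out the medians were -0.40 for MICOS and SAM and -0.27 for the content genes, and with that on GC content taken out too they were -0.36 and -0.26. In the same fits the medians were -0.28 and -0.26 for the fusion members, -0.093 and -0.11 for the fission members and -0.11 and -0.036 for the mitophagy members.

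The members were also set against the content genes, a separate list, as a ratio of summed levels. The content genes summed to 11055 and 10467 TPM in control mice and to 9367, 8722 and 8080 TPM in knockout mice. The 10 members summed to 1056 and 1049 TPM against 1010, 1043 and 1116 TPM, groups that overlapped. Their ratio to the content genes was 9.56% and 10.0% in control mice and 10.8%, 12.0% and 13.8% in knockout mice, with no overlap, and the groups were apart in the sum of the content genes and not in that of the members. This ratio, too, was picked after values were seen and has no test.

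**Figure D4:**
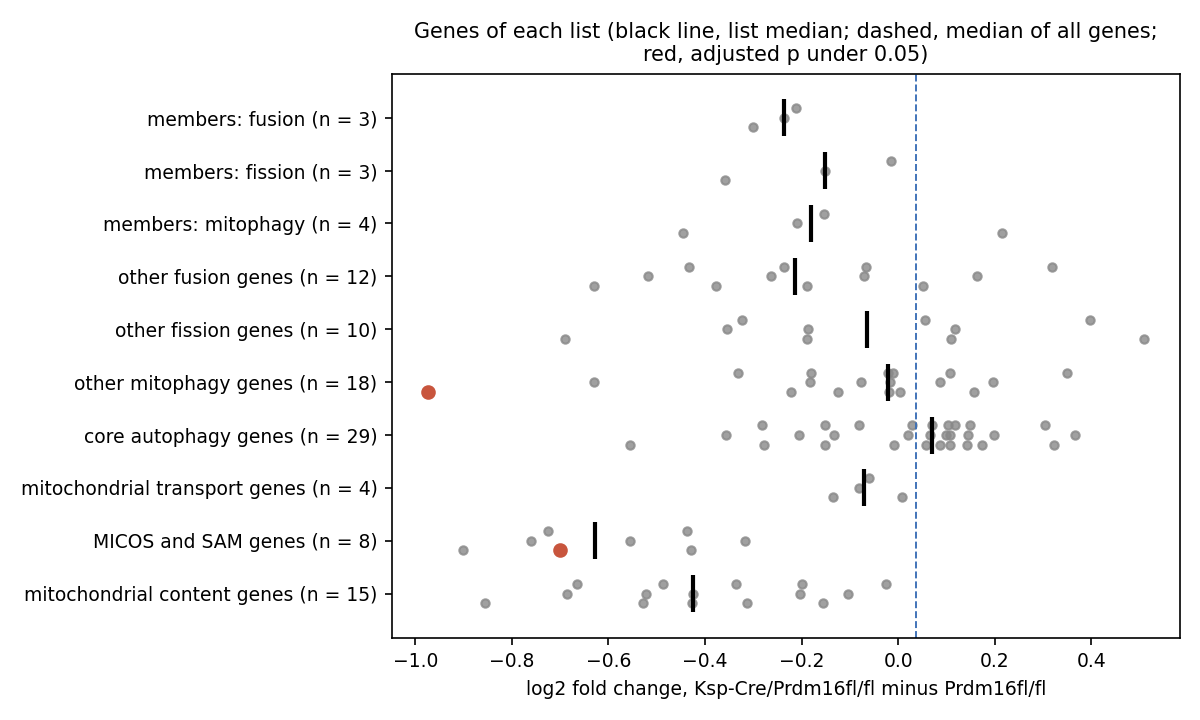
Log2 fold change (horizontal axis) of every tested gene of each list between Ksp-Cre/Prdm16fl/fl and Prdm16fl/fl UIRI kidneys, with a black line at the list median and a dashed line at the median of all genes. The fusion, fission and mitophagy members lie at medians of -0.24, -0.15 and -0.18 (-0.13, -0.035 and -0.071 under scaling by library size), the MICOS and SAM genes at -0.63, and the 2 called genes (red) are Tomm7 and Micos13. The medians of the other fission, other mitophagy and transport genes turn positive under scaling by library size.

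Among 10 regulators of mitochondrial and stress genes, Prdm16 included, 5 were below 0 and 5 above, and 0 were called. Ppargc1a, the coactivator of mitochondrial biogenesis, had a log2 fold change of -0.44 (SE 0.10, adjusted p = 0.102), and Esrra, a nuclear receptor it coactivates, had the lowest estimate at -0.58 (SE 0.20, adjusted p = 0.209). Foxo3, a factor that can activate mitophagy genes, had the highest at 0.19 (SE 0.16, adjusted p = 0.566). Ppargc1a and Tfam, the packaging factor of mitochondrial DNA, were called lower without knockout mouse 3. Of 15 HIF target genes 11 were below 0, 4 were above and 0 were called, with a median of -0.22, which was -0.32 without control mouse 1, -0.086 without control mouse 3 and -0.078 with limma on log2(FPKM + 1). They ranged from -0.88 (SE 0.30, adjusted p = 0.196) for Car9, a carbonic anhydrase, to 0.56 (SE 0.45, adjusted p = 0.543) for Ndrg1, and without knockout mouse 3 only Vegfa, an angiogenic factor, was called, as lower. The list summed to 4718 and 4513 TPM in control mice and to 4885, 5093 and 6943 TPM in knockout mice, highest in mouse 3. The median gene of the list did not follow that sum, at -0.17, -0.16 and -0.15 relative to the control mean in knockout mice 1, 2 and 3. Ndrg1, the most abundant of them, followed the order of Bnip3 across the knockout mice, at 1568, 2170 and 4575 CPM against 1817 and 1940 CPM in the control mice. The part of these factors in the values of Bnip3 was not tested.

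Genes with the pattern most like each member over the 5 libraries were found by the Euclidean distance between centred log2 CPM values. Mfn1 was nearest to Lonp1, a matrix protease, and Pdha1, a subunit of pyruvate dehydrogenase, at distances of 0.039 and 0.048. Opa1 was nearest to Nxf1 at 0.050, Dnm1l to Mrpl40 at 0.038 and Fis1 to Itm2b at 0.028. Mfn2 was nearest to Rcan2 at 0.054 and Mff to Ftx at 0.035. Pink1 and Bnip3 had less close neighbours, Fmnl1 at 0.080 and Pex16 at 0.077, and Bnip3l was nearest to Apex1 at 0.031. With 5 points and 16394 genes such neighbours are a description only.

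Markers of the kidney cortex were present in every library. Those of several cell types differed between the genotypes alongside these values, and in whole tissue fewer cells of a type and less RNA per cell cannot be told apart. All 12 proximal tubule markers, of the segment richest in mitochondria, were below 0, with a median of -1.31, and 2 of them, Slc22a8 and Miox, were called lower. Their summed level was 10160 and 9701 TPM in control mice and 4776, 5610 and 4488 TPM in knockout mice, with Slc27a2 the most abundant. The median of this list, relative to the control mean, was -0.998, -1.05 and -1.86 in knockout mice 1, 2 and 3, while that of the members was -0.18, -0.16 and -0.17. All 7 injured tubule markers were above 0 with 0 called and a median of 1.15. They summed to 17982 and 17705 TPM against 45925, 47608 and 51582 TPM, with Spp1 the most abundant. In the fit without mouse 3, 10 of the 12 proximal markers were called lower and 6 of the 7 injury markers higher.

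Knockout mouse 3, the lowest for Mfn2 and Fundc1, was also the lowest for markers of several other compartments. The 4 thick ascending limb markers, led by Umod, summed to 2246 and 2779 TPM in control mice and to 2476, 2227 and 1015 TPM in knockout mice. The 4 markers of the distal convoluted tubule, led by Slc12a3, summed to 984 and 547 TPM against 673, 412 and 194 TPM, and the 5 of the collecting duct, led by Hsd11b2, to 794 and 620 TPM against 748, 443 and 506 TPM. All of these genes were below 0, with a median of -0.68 for the thick ascending limb, -1.0004 for the distal convoluted tubule (lowest -3.93 for Pvalb) and -0.60 for the collecting duct, and 0 were called, or 2 of each list, all lower, without mouse 3. The 7 macrophage markers, led by Lyz2, summed to 1627 and 2138 TPM against 3089, 2808 and 1237 TPM, with 4 above 0, 3 below and 0 called. By these sums mouse 3 was the lowest of the 5 kidneys for loop, distal tubule and macrophage markers. The median of the macrophage markers was 0.075 with all mice and 0.36 without mouse 3, where Adgre1 and Csf1r were called higher.

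Markers of the stroma, the glomerulus and the blood were summed in the same way. The 5 markers of fibroblasts and pericytes, led by Col3a1, were all above 0 (172 and 260 TPM against 484, 455 and 300 TPM, median 0.44, 0 called). The 5 endothelial markers, led by Emcn, summed to 148 and 144 TPM against 163, 136 and 187 TPM with a median of -0.13 and 0 called. The 4 podocyte markers, led by Podxl, were all below 0 (289 and 202 TPM against 177, 181 and 179 TPM), and Nphs1 was called lower (log2 fold change -0.85, SE 0.11, adjusted p = 0.0412). Lymphocyte markers, led by Cd8a, summed to 20.1 and 18.1 TPM against 24.4, 26.7 and 11.4 TPM, with 3 of 4 tested and 0 called. The 5 genes of red blood cells, led by Hbb-bs, were all above 0 with a median of 3.93 and 0 called, at 24.1 and 34.0 TPM against 657, 650 and 155 TPM. Without mouse 3, all 5 red blood cell genes and 3 of the 5 fibroblast and pericyte markers were called higher. In that fit 3 of the 4 podocyte markers and 1 endothelial marker, Kdr, were called lower, and 0 lymphocyte markers were called. None of the markers of any list was at 0 in all kidneys. The part of these compartments in the values of the 10 genes was not tested.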

How the data were processed

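Kidney RNA-seq libraries were grouped by the genotype in the labels. The methods describe oligo(dT) libraries of the cortex with paired-end reads of 150 bp. The authors deposited raw counts per gene without normalization, and TPM and FPKM computed from them. The submitters' processing notes name CASAVA, featureCounts 2.0.1, DESeq2 1.16.1 and a human genome build, although the files list mouse genes, so positions are as the files give them. Aligner, mouse build and use of strand are not given in the sources used here. The lines of 5 genes, broken in the files, were rejoined.

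Counts were filtered with filterByExpr, TMM-scaled and tested with the quasi-likelihood test of edgeR 4.0.16 (R 4.3.3), without covariates. Alternatives were DESeq2 1.42.0, other filters and scalings, limma 3.58.1 on log2(FPKM + 1) and log2(FPKM + 0.1), each mouse left out, the mouse number as a block, and loess trends on gene length and GC content removed. The code was tested on simulated data.

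The members and the 23 gene lists were chosen with earlier results of these data known. Named were all members, the highest, lowest and called genes of each pathway list, the most abundant gene of each marker list, and the nearest genes of each member. Other genes were named after their values were seen, and some items are not reported here. Promoters are RefSeq windows in GRCm38.p6.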

Additional observations from a re-analysis of the deposited data

How the results depend on the processing

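The 160 called genes became 1166 with DESeq2, 471 without a filter on low counts, 213 with at least 10 counts in every library, 117 with upper quartile scaling, 51 with library size scaling, 69 and 49 with limma on log2(FPKM + 1) and log2(FPKM + 0.1), 27 with the gene length trend removed and 41 with the gene length and GC trend removed, the last chosen after seeing the data. When single mice were left out, the count ranged from 0 to 3053. It was 3053 without Ksp-Cre/Prdm16fl/fl mouse 3 and 0 in each of the other 4 fits, with 1330 to 2514 genes at an unadjusted p under 0.05. The number of members called ranged from 0 to 3 over those 5 fits, with all 3 calls without Ksp-Cre/Prdm16fl/fl mouse 3, and was 0 under every other alternative. Deviations of same-numbered mice of the 2 genotypes correlated at r = 0.0010 for mouse 1 and -0.022 for mouse 3. With 2 control mice, whose deviations mirror each other, these values cannot show whether the numbers pair the mice, and the labels do not say so. With it as a block 0 genes were called, 2061 had an unadjusted p under 0.05, and the median of the members was -0.24.

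The median log2 fold change of the members stayed below 0 throughout. It was -0.10 with library size scaling, -0.11 with limma at either pseudocount, -0.16 with the gene length trend removed and -0.12 with the gene length and GC trend removed, and ranged from -0.23 to -0.17 with each mouse left out. Members with all Ksp-Cre/Prdm16fl/fl mice below both others numbered 5 after TMM scaling, 3 after library size scaling and 1 in the deposited TPM, the last added after seeing the data. Mff turned positive at 0.096 with library size scaling, 0.093 and 0.095 with limma on log2(FPKM + 1) and log2(FPKM + 0.1), 0.0097 with the replicate block, 0.093 with the gene length trend removed and 0.18 with the gene length and GC trend removed, and ranged from -0.047 to 0.011 with each mouse left out, positive without Ksp-Cre/Prdm16fl/fl mouse 2. Bnip3 turned to 0.0078 with the gene length and GC trend removed. Fundc1 ranged from -0.26 to 0.021 with each mouse left out, positive without Ksp-Cre/Prdm16fl/fl mouse 3. The other 7 members kept their direction in all 15 fits, and the cause of the changes was not tested. These fits do not include the deposited TPM, where 39.5% of all genes had every knockout mouse above both control mice. There the knockout mean was above the control mean for Mfn1 (60.53 against 60.48 TPM), Opa1 (36.3 against 35.5) and Dnm1l (88.8 against 83.2). Mfn2, Fis1 and Pink1 were lower and Bnip3l higher on that scale too.

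Each member had at least 470 reads in every library, and the groups held 2 and 3 mice.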
